A study of Homo sapiens with 9 samples.

Results

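The constitutive proteasome genes were followed in U251 cells after knockdown of PTBP1. They were chosen by symbol, with earlier results of these data known. The rule took every entry named PSMA, PSMB, PSMC, PSMD, PSME, PSMF or PSMG with a number. It left out the catalytic beta subunits PSMB5 to PSMB10 and the activator subunits PSME1 and PSME2. Of 22295 entries in the expression table, 40 met this rule, 13 in the core, 9 in the base, 8 in the lid and 10 among assembly chaperones, activators and an inhibitor. Of the 40, 38 had a mean over the 9 libraries of at least 0.1 FPKM (fragments counted per length of transcript and per depth of the library) and were tested among 15551 such entries.

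The proteasome degrades proteins that carry ubiquitin chains. Its core is a barrel of stacked rings, with outer alpha rings that gate the entry and inner beta rings, of which some subunits cut protein chains while the others are structural. A regulatory particle caps the barrel: its base holds a ring of ATPases that unfold the substrate, and its lid removes the ubiquitin. Each subunit takes part in the finished particle in a fixed number of copies, and dedicated chaperones assemble core and base. NFE2L1 is a transcription factor known to raise proteasome genes together when proteasome activity runs short.

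The cells were U251, an established line from a human glioblastoma. In the group sh-Luci-3d the cells carried a control lentivirus against luciferase for 3 days, and in sh-Ptbp1-3d and sh-Ptbp1-7d a lentivirus against PTBP1 for 3 and 7 days, with 3 libraries of total RNA in each group. The study used the most effective of its sh-RNAs, so every knockdown library rests on 1 sh-RNA sequence, and its vectors carry the marker M-cherry. According to its methods, sh-Luci and sh-PTBP1 cells alike were changed 2 days after infection to neuronal induction medium with N2, B27, forskolin and dorsomorphin. No sh-Luci library of 7 days was analysed here, so in comparisons with sh-Ptbp1-7d the knockdown and the added days in this medium cannot be told apart. The labels do not say that the libraries of a group came from separate cultures, and the p-values measure only the spread between these samples.

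The targeted gene followed the labels. PTBP1, an RNA-binding repressor of neuronal exons on chromosome 19 from 797075 to 812327, had 111, 112 and 124 FPKM in sh-Luci-3d, 66.2, 64.4 and 61.0 in sh-Ptbp1-3d, and 49.7, 50.7 and 51.0 in sh-Ptbp1-7d, and the 3 groups did not overlap. Of 10 glioma and astroglial markers, 7 had a mean of at least 1 FPKM, whereas GFAP and S100B lay below it and CHI3L1 was listed at 0. The summed level of the 10 was between 4470 and 4596 FPKM in sh-Luci-3d, between 4593 and 4889 in sh-Ptbp1-3d and between 1393 and 1514 in sh-Ptbp1-7d. Most of this sum was VIM, with group means of 4168, 4381 and 1169 FPKM, whereas SOX2 had means of 106, 125 and 145. At an FDR of 0.01, 3 of the 10 were lower and 1 higher at 7 days against sh-Ptbp1-3d, and 3 and 2 against sh-Luci-3d. Among all 15551 tested entries, 15.5% were lower and 20.3% higher in the former comparison, and 15% and 20.6% in the latter. The 8 neuronal markers summed to between 265 and 316, 335 and 357, and 159 and 166 FPKM in the same order, and most of this sum was TUBB3, with means of 261, 317 and 118. MAP2 had means of 22.4, 20.3 and 38.9 FPKM and SNAP25 of 1.27, 2.68 and 4.32. Beside the same shares of all entries, 1 of the 8 markers was lower and 1 higher against sh-Ptbp1-3d, and 1 and 2 against sh-Luci-3d. TUBB3, MAP2, SNAP25 and STMN2 had a mean above 1 FPKM. STMN2, however, was at 11.5 FPKM in sh-Ptbp1-3d replicate 3 and listed at 0 in the other 8 libraries. DCX, at 2.14 FPKM, and FABP7, at 15.0, were also highest in that library. None of 8 blood and immune or 6 fibroblast and endothelial markers reached a mean of 1 FPKM. The part of these shifts in the proteasome results was not tested. All FPKM of a library summed to between 367412 and 404922. In bulk RNA, fewer cells of a type and less RNA per cell cannot be told apart.

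At 3 days the changes of the proteasome genes between knockdown and control lay between -0.26 and 0.26 on the log2 scale, and at 7 days most of them had lower estimates. No member passed the test at 3 days. From sh-Ptbp1-3d to sh-Ptbp1-7d, 16 of the 38 fell and 2 rose, where 15.5% of all entries were lower and 20.3% higher, and the median change was -0.29 beside 0.092 over all entries. Those that fell were 7 of 11 core, 6 of 9 base, 1 of 8 lid and 2 of 10 other genes. Against sh-Luci-3d, in a comparison that shares the 7 day libraries, 16 fell and 1 rose, where 15% of all entries were lower and 20.6% higher.

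In sh-Luci-3d the subunits covered a wide range of RNA levels. FPKM is scaled per length, so levels were set beside each other between genes, but reads assigned to copies or neighbours can still shift them. The 19 most abundant members had group means between 62.2 and 318 FPKM, and the other 19 between 8.48 and 62.0. PSMD2, a large base subunit that serves as a docking platform for ubiquitin-binding proteins, was highest at 318 ± 25.3 FPKM (SD, n = 3). PSMA7 of the alpha ring followed at 279 ± 74.2, PSMB3 of the beta ring at 223 ± 22.6 and PSMB4 at 180 ± 19.6, and the sh-Luci-3d libraries of neighbours in this order overlapped apart from those of PSMB3 and PSMB4. The wide spread of PSMA7 came from replicate 3, at 365 FPKM against 242 and 231 in the others. The core assembly chaperone PSMG4 was lowest of the 38, at 8.48 ± 3.14 FPKM. Genes of 1 ring thus differed several-fold in FPKM, by 9.78 ± 2.57 times from PSMA7 to PSMA5 in the alpha ring, 5.01 ± 0.468 times in the ATPase ring and 5.52 ± 1.25 times in the lid. PSMC1, the ATPase with the lowest mean at 28.4 ± 0.862 FPKM, has 13 pseudogenes named after it in GENCODE v29. Their part in its value was not tested.

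A pair of members was almost absent. PSMB11, the beta subunit of the thymus proteasome, was listed at 0 in all 9 libraries. PSMA8, an alpha subunit known from testis, had 0.0357 FPKM in sh-Luci-3d replicate 2 and 0.0396 in sh-Ptbp1-7d replicate 2, and was listed at 0 in the other 7. Neither entered the test.

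The comparison of sh-Ptbp1-3d with sh-Luci-3d asks what changed soon after PTBP1 was knocked down. Of the 38 members 0 passed an FDR of 0.05 (limma, Benjamini-Hochberg over all 15551 entries) in either direction, where 0.0129% of all entries were called lower and 0.0193% higher. An unadjusted limma p under 0.05 was reached by 2 of the 38 members and by 1126 of all 15551 entries. The smallest limma adjusted p of a member in this fit was 0.557, and alternative fits of the same values are given further on. The changes lay between -0.26, for the lid subunit PSMD11, and 0.26, for PSMG4, with a median of 0.018 beside 0.010 over all entries. The standard errors ran from 0.073 to 0.22, and the 95% intervals from -0.52 to 0.75 at their widest ends. PSMD11 showed the largest decrease and had its groups apart, at 64.3, 57.2 and 60.2 FPKM in sh-Luci-3d and 52.4, 52.7 and 46.6 in sh-Ptbp1-3d. PSMA2 was the 1 member with its groups apart in the other direction, by 0.20 (95% interval 0.021 to 0.38, limma adjusted p = 0.637). Of all 15551 entries, 767 were lower and 911 higher without overlap. Neither PSMD11 nor PSMA2 passed the test.

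One control library decided this count. Without sh-Luci-3d replicate 3, PSMA7 was called higher in sh-Ptbp1-3d by 0.41 (standard error 0.070, limma adjusted p = 0.0144) and PSMD5 lower by -0.34 (standard error 0.077, limma adjusted p = 0.0353). In that fit 1.35% of all entries were called lower and 5.02% higher, and replicate 3 correlated with the other 2 sh-Luci-3d libraries at a Spearman coefficient of 0.984 across entries, against 0.991 between those 2.

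The comparison of sh-Ptbp1-7d with sh-Ptbp1-3d follows the knockdown cells over time. Of the 38 members 16 were lower at an FDR of 0.01, where 15.5% of all entries were, and 2 were higher, where 20.3% of all entries were. With median-ratio scaling 19 were lower and 0 higher, when 18.6% of all entries were lower. Once GC content and transcript length were corrected for, 27 were lower and 0 higher, when 26.2% of all entries were lower and 54.6% of all calls were, in place of 43.4%. No member passed a fold change of 2 together with this FDR, which 14.2% of all entries did in one direction or the other, and the largest change of a member was -0.82. The estimate was below 0 for 28 of 38 members and for 44.1% of all entries, and the median was -0.29 for the members and 0.092 for all entries. In 26 members all libraries of 7 days were below those of 3 days, where this held for 27% of all entries, and in 5 they were above them, where it held for 35.3%. The members together took 0.778% ± 0.032 (SD, n = 3) of all FPKM in sh-Luci-3d, 0.784% ± 0.025 in sh-Ptbp1-3d and 0.624% ± 0.0082 in sh-Ptbp1-7d.

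**Figure D1:**
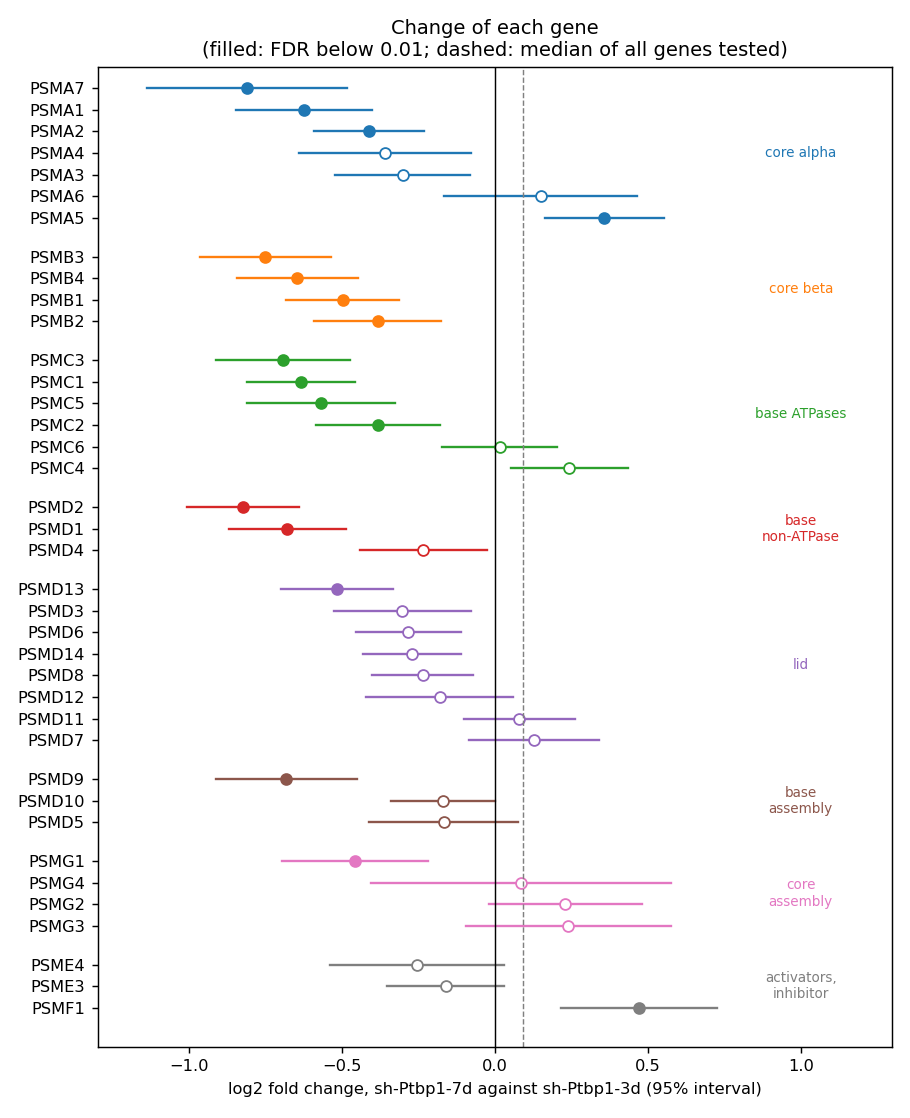
Log2 fold change of each tested gene between the 7 and 3 day knockdown libraries, with 95% intervals from limma, grouped by role. Filled points passed an FDR of 0.01, and the dashed line is the median of all entries, at 0.092. The 4 structural beta genes and 2 of 3 base non-ATPase genes are filled to the left of 0, and 1 of 8 lid genes is.

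Of the 7 tested alpha ring genes, 3 fell and 1 rose, with a median of -0.36. PSMA7 had 335, 317 and 290 FPKM in sh-Ptbp1-3d and 183, 178 and 175 in sh-Ptbp1-7d. Every 7 day library lay below every 3 day library of either group, and the change was -0.81 (standard error 0.15, limma adjusted p = 0.00104). PSMA1 fell by 0.62 and PSMA2 by 0.41. PSMA5 went the other way, at 29.5, 28.2 and 23.8 FPKM in sh-Ptbp1-3d, 28.4, 28.7 and 28.6 in sh-Luci-3d and 34.3, 33.7 and 36.0 in sh-Ptbp1-7d. The 7 day libraries were all above the others, and the rise of 0.36 (standard error 0.088, limma adjusted p = 0.00635) passed the test. The direction was the same under the 3 other scalings and the correction for GC content and length, but the call was kept in 10 of 21 alternatives. Without replicate 2 or 3 of sh-Ptbp1-3d, or replicate 1 or 2 of sh-Ptbp1-7d, 0 of all 38 members were called higher. Between 2307 and 2501 of all entries were higher in those fits.

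PSMA6 was the alpha gene with the smallest change. It had 82.4, 99.9 and 83.4 FPKM in sh-Ptbp1-3d and 117, 81.0 and 98.8 in sh-Ptbp1-7d, and the groups overlapped (change 0.15, 95% interval -0.17 to 0.47, limma adjusted p = 0.413), with an estimate of -0.025 after the correction for GC content and length. A readthrough gene on the same strand, AL121594.1, overlaps PSMA6. It stood at 4.58, 13.5 and 16.1 FPKM in sh-Ptbp1-7d, and it was lowest where PSMA6 was highest in this group. How the authors' counting split reads between overlapping genes was not tested.

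The levels of the alpha ring genes spanned a narrower range at 7 days. The highest gene, PSMA7, was 11.6 ± 0.522 times the lowest, PSMA5, in sh-Ptbp1-3d and 5.16 ± 0.258 times in sh-Ptbp1-7d, and the groups did not overlap. In sh-Luci-3d this ratio was between 8.06 and 12.7. PSMA5 made up 3.49% ± 0.18 of the summed FPKM of the ring in sh-Ptbp1-3d and 6.09% ± 0.090 in sh-Ptbp1-7d. The coefficient of variation over the 7 genes was between 52.6% and 62.4% in sh-Ptbp1-7d, below the 81.0% to 86.4% in sh-Ptbp1-3d, but it overlapped the 59.1% to 93.8% in sh-Luci-3d. These ratios are taken within a library and do not change when all its values are multiplied by one factor. Quantile normalization does alter them, the changes of PSMA7 and PSMA5 being -0.60 and 0.35 with it. In the ATPase ring and the lid the ratio of the highest to the lowest gene overlapped between the groups, at 4.83 ± 0.516 and 4.78 ± 0.206 times in the ring, and at 5.93 ± 0.305 and 5.70 ± 0.0991 times in the lid. Their coefficients of variation did not overlap between these groups. That of the ATPase ring was between 58.9% and 63.8% in sh-Ptbp1-3d and between 52.5% and 54.4% in sh-Ptbp1-7d. That of the lid was between 54.1% and 56.9% and between 50.1% and 53.1%, with sh-Luci-3d, between 46.9% and 58.2%, overlapping both.

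All 4 tested structural genes of the beta ring fell, with a median of -0.57. PSMB3 had 245, 243 and 208 FPKM in sh-Ptbp1-3d and 129, 142 and 142 in sh-Ptbp1-7d. The groups were well apart, with a change of -0.75 (standard error 0.097, limma adjusted p = 9.35e-05). The call was kept in 21 of 21 alternatives. PSMB4 fell by 0.65 and PSMB1 by 0.50. PSMB2 had the smallest change of the 4, from 63.0, 60.1 and 54.5 FPKM to 43.0, 42.9 and 50.3. Its change of -0.38 (standard error 0.094, limma adjusted p = 0.00598) was called in 12 of 21 alternatives.

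The largest decrease of the 38 was in the base. PSMD2 had 351, 348 and 318 FPKM in sh-Ptbp1-3d and 198, 191 and 184 in sh-Ptbp1-7d. The 7 day libraries were at 0.565 times the 3 day level, a change of -0.82 (standard error 0.082, limma adjusted p = 1.49e-05). PSMD1, the other large scaffold subunit of the base, fell by 0.68. The third non-ATPase, the ubiquitin receptor PSMD4, was at 78.9, 76.7 and 71.5 FPKM in the 3 day and 60.1, 65.1 and 67.9 in the 7 day knockdown libraries. Its libraries did not overlap, but its change of -0.23 (95% interval -0.44 to -0.028, limma adjusted p = 0.0581) missed the threshold.

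Of the 6 ATPases, which form 1 ring in the particle, 4 fell and 2 were not called. PSMC3 had 160, 144 and 132 FPKM in sh-Ptbp1-3d and 92.3, 86.7 and 89.7 in sh-Ptbp1-7d, a change of -0.69 (standard error 0.099, limma adjusted p = 0.000202). PSMC1 fell by 0.64, PSMC5 by 0.57 and PSMC2 by 0.38. PSMC6 was at 29.5, 33.3 and 30.8 FPKM in the 3 day and 29.7, 31.7 and 33.0 in the 7 day knockdown libraries. These groups overlapped throughout, with a change of 0.015 (95% interval -0.17 to 0.20, limma adjusted p = 0.896) that was -0.072 under median-ratio scaling and -0.15 after the correction for GC content and length. PSMC4, named here after its values were seen, was at 82.5, 84.2 and 74.9 FPKM in the 3 day and 90.2, 91.4 and 105 in the 7 day knockdown libraries. All 7 day libraries were higher, but the change of 0.24 (95% interval 0.051 to 0.43, limma adjusted p = 0.0379) missed the threshold. The share of PSMC4 in the summed FPKM of the 6 ATPases was 16.5% ± 0.51 in sh-Ptbp1-3d and 25.3% ± 1.10 in sh-Ptbp1-7d.

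Of the 8 lid genes, 1 fell and 0 rose, where 15.5% of all entries were lower and 20.3% higher. In 6 of them every 7 day library was below every sh-Ptbp1-3d library, where this held for 27% of all entries. PSMD13 had 78.6, 75.0 and 66.9 FPKM in sh-Ptbp1-3d and 49.0, 54.1 and 50.8 in sh-Ptbp1-7d, a change of -0.52 (standard error 0.083, limma adjusted p = 0.00044). PSMD14, the deubiquitinase of the lid, lay just above the threshold with a change of -0.27 (standard error 0.073, limma adjusted p = 0.010). It passed it in 9 of 21 alternatives. PSMD11, a lid subunit that clamps core and regulatory particle together, was at 52.4, 52.7 and 46.6 FPKM in the 3 day and 54.1, 50.045 and 56.0 in the 7 day knockdown libraries. These libraries overlapped, with a change of 0.079 (95% interval -0.10 to 0.26, limma adjusted p = 0.454) that was -0.0089 under median-ratio scaling and -0.086 after that correction. The lid median was -0.25. The rule by symbol leaves out the lid subunit SEM1, with an estimate of -0.37 (limma adjusted p = 0.0864). It also leaves out the base subunit ADRM1, at -0.43 (limma adjusted p = 0.01035).

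Set beside each other per library, the lid was higher relative to core and base at 7 days. The mean FPKM per lid gene divided by that per core gene was 0.591, 0.568 and 0.535 in sh-Luci-3d, 0.541, 0.538 and 0.565 in sh-Ptbp1-3d and 0.661, 0.679 and 0.678 in sh-Ptbp1-7d. The lid to base ratio was between 0.652 and 0.697, between 0.643 and 0.671, and between 0.778 and 0.825 in the same order. All 7 day values were above all 3 day values, whereas the base to core ratio overlapped between the groups, with means of 0.831, 0.838 and 0.840. With geometric means, which give every gene the same weight, the lid to core ratio was between 0.574 and 0.622 in the 6 libraries of 3 days and between 0.660 and 0.678 at 7 days. No p is given for these ratios, since they were chosen with the values known, and the difference between lid and the other parts was not tested otherwise.

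**Figure D2:**
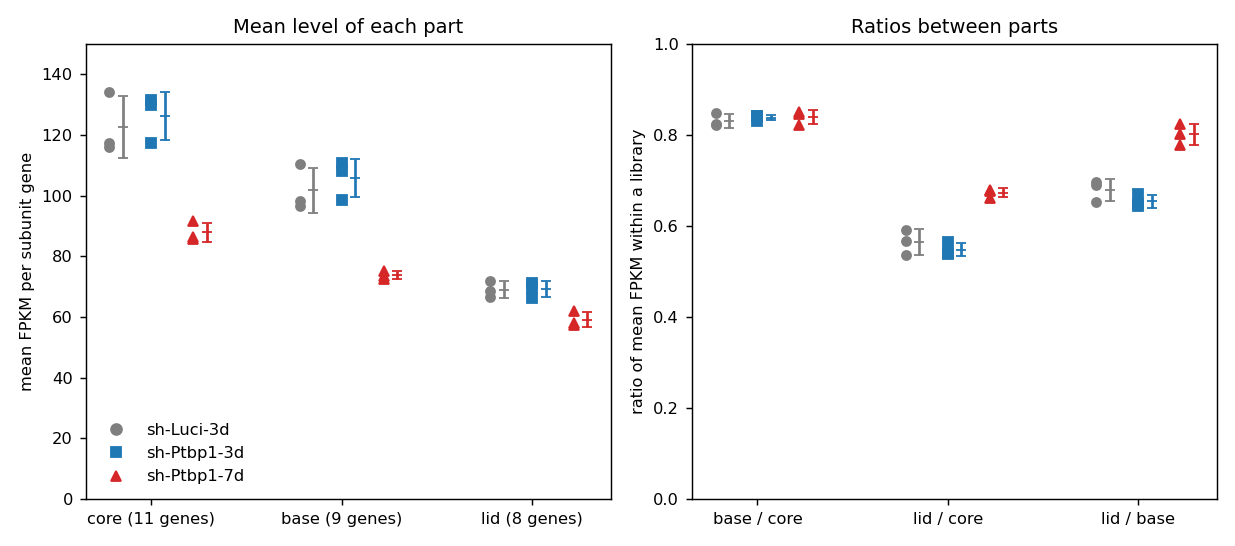
Left, mean FPKM per gene of the tested core, base and lid genes in each library. Right, the ratios of these means within each library. Points are libraries, and the bars beside them give the group mean and SD (n = 3). Core and base stood at 126 ± 7.93 and 106 ± 6.39 FPKM in sh-Ptbp1-3d and at 87.9 ± 3.18 and 73.7 ± 1.35 in sh-Ptbp1-7d, and the lid stood at 69.1 ± 2.65 and 59.1 ± 2.57.

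Among the chaperones of base assembly 1 of 3 fell. PSMD9 had 20.8, 19.4 and 18.8 FPKM in sh-Ptbp1-3d and 12.3, 12.1 and 12.2 in sh-Ptbp1-7d, well apart, with a change of -0.68 (standard error 0.10, limma adjusted p = 0.000305). PSMD9 overlaps other genes on its own strand. PSMD5 was at 13.5, 14.4 and 12.8 FPKM in the 3 day and 11.8, 11.9 and 12.4 in the 7 day knockdown libraries. Its change of -0.17 (95% interval -0.41 to 0.076, limma adjusted p = 0.231) did not pass the test.

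Of the 4 core assembly chaperones 1 fell, and their median was 0.16. PSMG1 had 20.6, 17.3 and 16.5 FPKM in sh-Ptbp1-3d and 13.3, 12.3 and 13.8 in sh-Ptbp1-7d, a change of -0.46 (standard error 0.11, limma adjusted p = 0.00497). Its partner in a heterodimer, PSMG2, had an estimate of 0.23 (limma adjusted p = 0.116), and its 7 day libraries were above those of sh-Ptbp1-3d. PSMG4 was at 11.1, 8.95 and 9.35 FPKM in the 3 day and 12.5, 10.2 and 8.71 in the 7 day knockdown libraries, overlapping, with an estimate of 0.085 (95% interval -0.41 to 0.57, limma adjusted p = 0.774) that was below 0 under median-ratio scaling and quantile normalization, at -0.0021 and -0.0063, and after the correction for GC content and length, at -0.11. The summed FPKM of the 4 chaperones was 64.2 ± 3.84 in sh-Ptbp1-3d and 66.4 ± 2.96 in sh-Ptbp1-7d.

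Of the activators and the inhibitor, PSMF1 rose. It encodes a protein first described as an inhibitor of the core, and had 11.8, 11.2 and 11.1 FPKM in sh-Ptbp1-3d, 10.9, 12.6 and 9.88 in sh-Luci-3d and 15.6, 18.0 and 14.0 in sh-Ptbp1-7d. All 7 day libraries were above all others, with a change of 0.47 (standard error 0.12, limma adjusted p = 0.00606) that kept its direction under the 3 other scalings and its call in 12 of 21 alternatives. PSME3, a nuclear activator, was at 57.2, 57.1 and 53.3 FPKM in the 3 day and 46.9, 49.4 and 53.6 in the 7 day knockdown libraries, with an estimate of -0.16 (95% interval -0.35 to 0.030, limma adjusted p = 0.146). PSME4, a large activator that caps the core without ATP, had an estimate of -0.26 (limma adjusted p = 0.122).

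Promoters are shown for members that moved in either direction, as 250 bases before a RefSeq start (GRCh38.p14), 5′ to 3′ on the gene's strand. PSMB3 (chr17:38752491-38752740, + strand), PSMD2 (chr3:184298991-184299240, + strand, the first of its windows) and PSMD13 (chr11:236726-236975, + strand) fell, and PSMA5 (chr1:109426449-109426698, - strand) rose. In GENCODE v29 the genes PSMD2 and PSMD13 start further upstream, at 184298709 and 236546, so their windows lie inside the genes as placed there. Capitals mark matches on either strand to any of 4 motifs. They are TGANNNNGC, CCAAT (the NF-Y box), CCGGAAG (an ETS core) and GGGCGG (the GC box of Sp factors). TGANNNNGC is a loose form of the antioxidant response element core, to which NFE2L1 and NFE2L2 bind with small MAF proteins. A match need not be such a site. In PSMA5 a TGANNNNGC match overlaps a GC box and another overlaps a CCAAT box.
PSMB3: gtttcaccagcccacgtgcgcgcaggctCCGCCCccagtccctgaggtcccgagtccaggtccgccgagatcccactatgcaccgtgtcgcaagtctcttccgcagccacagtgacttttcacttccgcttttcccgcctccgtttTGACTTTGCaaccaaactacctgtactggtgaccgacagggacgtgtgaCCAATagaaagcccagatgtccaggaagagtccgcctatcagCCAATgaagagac
PSMD2: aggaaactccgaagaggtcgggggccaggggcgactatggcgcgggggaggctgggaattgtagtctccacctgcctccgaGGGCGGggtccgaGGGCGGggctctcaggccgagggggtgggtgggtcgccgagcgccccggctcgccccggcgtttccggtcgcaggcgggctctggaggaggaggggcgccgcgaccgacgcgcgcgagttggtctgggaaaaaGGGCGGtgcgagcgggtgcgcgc
PSMD13: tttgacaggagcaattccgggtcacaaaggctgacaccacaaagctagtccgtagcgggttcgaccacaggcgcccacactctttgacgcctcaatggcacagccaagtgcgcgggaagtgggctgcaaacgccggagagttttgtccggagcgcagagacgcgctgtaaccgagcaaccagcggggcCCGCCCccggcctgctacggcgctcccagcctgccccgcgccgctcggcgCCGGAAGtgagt
PSMA5: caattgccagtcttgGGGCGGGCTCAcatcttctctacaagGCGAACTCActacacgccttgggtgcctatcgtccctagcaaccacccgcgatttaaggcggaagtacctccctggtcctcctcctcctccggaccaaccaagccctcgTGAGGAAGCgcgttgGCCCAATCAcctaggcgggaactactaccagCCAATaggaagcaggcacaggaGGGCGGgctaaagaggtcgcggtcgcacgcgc
The table held 43 windows for 36 of the 40 members, and 35116 windows in all. Of the member windows 51.2% held TGANNNNGC, against 35.2% of all windows, 39.5% against 32.0% CCAAT, 25.6% against 8.52% CCGGAAG, and 65.1% against 42.6% GGGCGG. TGANNNNGC was found in 6 of 14 genes that fell, 1 of 2 that rose and 11 of 18 tested genes that were not called, and the GC box in 11, 1 and 11 of them. These matches are a description of the letters in the windows, and binding was not tested.

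The comparison of sh-Ptbp1-7d with sh-Luci-3d shares its 7 day libraries with the one above and sets them beside the control virus. Of the 38 members 16 were lower, where 15% of all entries were, and 1 was higher, where 20.6% were. The median was -0.33 beside 0.099 over all entries, and 31 estimates were below 0. Groups did not overlap and were lower in 27 members, where 23.1% of all entries were, and higher in 3, where 32.8% were. PSMD2 changed by -0.73 (standard error 0.082, limma adjusted p = 3.6e-05), PSMB3 by -0.70 (limma adjusted p = 0.00016) and PSMC3 by -0.66 (limma adjusted p = 0.000274). PSMA7 changed by -0.61 (standard error 0.15, limma adjusted p = 0.00563), and between -0.73 and -0.41 when each library was left out in turn. PSMF1 was higher by 0.51 (standard error 0.12, limma adjusted p = 0.0038), whereas PSMA5, at 0.28 (limma adjusted p = 0.0224), missed the threshold. PSMA4 fell by 0.56 in this comparison and was not called against sh-Ptbp1-3d, and PSMA2, at -0.21, was called only against sh-Ptbp1-3d, but the difference between the comparisons was not tested. By part, 7 of 11 core, 6 of 9 base and 1 of 8 lid genes were lower. At an FDR of 0.05 the lid genes PSMD6 and PSMD14 (limma adjusted p = 0.01165 and 0.0306) and the core gene PSMA3 (limma adjusted p = 0.0135) would be added. Without sh-Ptbp1-7d replicate 1 or replicate 2 the count of lower members was 10, and that of higher members was 0, as it was without sh-Luci-3d replicate 1, and 3 members were higher without sh-Luci-3d replicate 3. Of all entries, 12.7% were lower without sh-Ptbp1-7d replicate 1 and 12.2% without its replicate 2.

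Members with a higher level in sh-Luci-3d had lower estimates at 7 days. Of the 19 members with the higher sh-Luci-3d level, 12 fell and 0 rose against sh-Ptbp1-3d, with a median of -0.41. Of the 19 with the lower level, 4 fell and 2 rose, with a median of -0.17. Across the 38 members the Spearman coefficient between level and change was -0.55, and across all 15551 entries it was -0.244. The points share the same 6 libraries of the comparison, and genes are not independent replicates. GC content and transcript length had coefficients of -0.207 and 0.202 across the members. The sh-Luci-3d libraries that set the level are not part of this comparison.

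**Figure D3:**
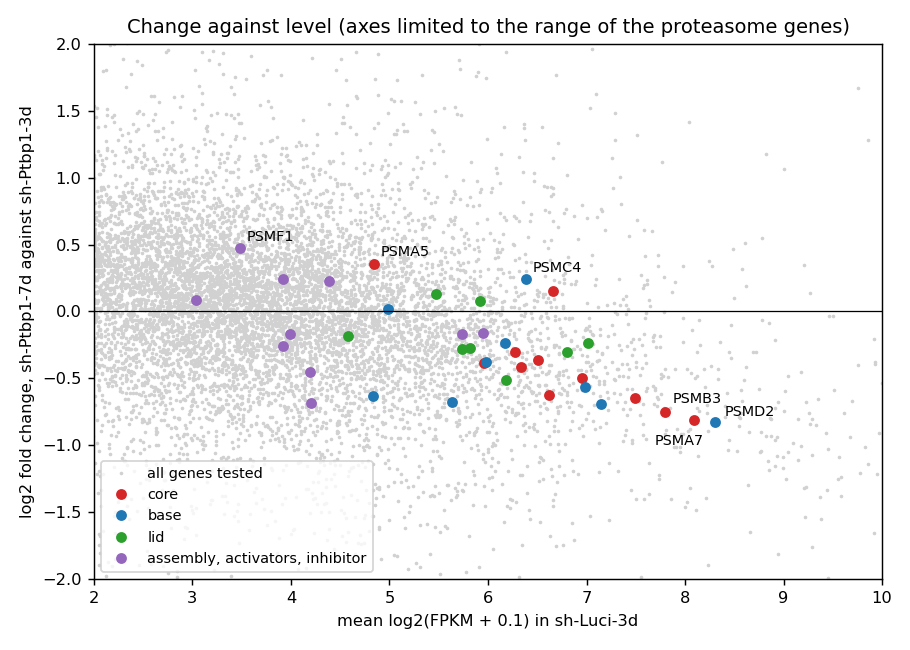
Log2 fold change of each entry between the 7 and 3 day knockdown libraries against its mean log2(FPKM + 0.1) in sh-Luci-3d. Coloured points are the 38 proteasome genes by part and grey points are other tested entries, with axes limited to the range of the proteasome genes. PSMD2, PSMA7 and PSMB3 lie lowest at the right, and PSMF1 and PSMA5 above 0 at lower levels.

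The subunits left out by the rule split into those of the standard and those of the immunoproteasome. PSMB6 and PSMB7, catalytic subunits of the standard core, fell by 0.68 and 0.70 at 7 days against sh-Ptbp1-3d. PSMB5, the third, was at 118, 111 and 108 FPKM in the 3 day and 87.9, 82.3 and 74.3 in the 7 day knockdown libraries, and its change of -0.46 (limma adjusted p = 0.0218) missed the threshold. PSMB8, PSMB9 and PSMB10, which replace them in the immunoproteasome, rose by 1.20, 4.37 and 1.11. PSMB9 had 2.92, 4.27 and 5.09 FPKM in sh-Ptbp1-3d and 89.9, 93.0 and 71.8 in sh-Ptbp1-7d. The 3 standard genes summed to 421 ± 27.4 FPKM in sh-Ptbp1-3d and 273 ± 11 in sh-Ptbp1-7d, and the 3 replacing genes to 77.3 ± 1.72 and 249 ± 14.0. PSME1 and PSME2, whose products form an activator induced with the immunoproteasome, rose by 1.18 and 1.26.

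With these 8, 32 other genes of the pathway were followed, and 4 fell and 8 rose, where 15.5% of all entries were lower and 20.3% higher. Without the 8, 2 of 24 fell and 3 rose, both smaller shares than over all entries. When sh-Luci-3d replicate 3 was left out, 8 of the 32 were called lower, where 18.9% of all entries were. VCP, the segregase that extracts ubiquitinated proteins, had 270, 292 and 245 FPKM in sh-Ptbp1-3d and 185, 204 and 195 in sh-Ptbp1-7d, a change of -0.46 (standard error 0.082, limma adjusted p = 0.000828). Its cofactor UFD1 fell by 0.80. The transcription factor NFE2L1 was at 71.7, 71.5 and 71.5 FPKM in the 3 day and 89.7, 83.5 and 74.3 in the 7 day knockdown libraries. Its 7 day libraries were higher, but the change of 0.20 (95% interval 0.017 to 0.38, limma adjusted p = 0.0664) missed the threshold. The estimate was 0.023 after the correction for GC content and length, and NFE2L1 was called in 0 of 21 alternatives. NGLY1, which deglycosylates the NFE2L1 protein, rose by 0.40 (limma adjusted p = 0.00673) and was called in 12 of 21 alternatives. The related factor NFE2L2 was at 20.2, 19.9 and 20.3 FPKM in the 3 day and 39.4, 43.2 and 48.3 in the 7 day knockdown libraries, a rise of 1.11 (standard error 0.11, limma adjusted p = 1.42e-05). ZFAND2A, a proteasome-binding protein induced by arsenite, rose by 0.52 and was called in 10 of 21 alternatives.

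On GRCh38, with positions from GENCODE v29, PSMD2 lies on chromosome 3 from 184298709 to 184309054, PSMA7 on chromosome 20 from 62136735 to 62143440, PSMB3 on chromosome 17 from 38752736 to 38764231 and PSMD13 on chromosome 11 from 236546 to 252984. PSMA5 lies on chromosome 1 from 109399031 to 109426427 and PSMF1 on chromosome 20 from 1113263 to 1189415. Some members share sequence or position with other genes. In GENCODE v29, 8 members have pseudogenes named after them, 27 in all, and 0 of these are entries of the table. A gene on the same strand overlaps 5 members (PSMA1, PSMA2, PSMA6, PSMD9 and PSMF1), and 15 overlap a gene on the other strand. The values of these members are uncertain to the extent that reads were assigned to copies or neighbours. Whether the libraries and the counting kept strand is not given in the sources used here.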

How the data were processed

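RNA-seq was measured in 9 libraries of U251 cells, grouped by their labels. The authors deposited FPKM values of 19932 gene symbols and 2363 assembled loci per library. Per the submitters' processing notes HISAT2 and GRCh38 were used, and the study sequenced on Illumina HiSeq and filtered the reads, while the counting program and annotation are not given in the sources used here. The coordinates of the loci, assembled with StringTie, were also deposited. FPKM values carried no whole-read steps, so the depth is unknown, no counting interval is given and count tests were not used.

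log2(FPKM + 0.1) was fitted with limma 3.58.1 (R 4.3.3), with all 9 libraries and 3 groups in one model and an intensity trend, for entries with a mean of at least 0.1 FPKM. Fold changes on this scale understate the change of low genes. The Benjamini-Hochberg adjustment ran over all entries tested, and the FDR threshold was 0.05 for the 3 day comparison and 0.01 for the 7 day comparisons, with a fold change of 2 given beside it, after the study's methods. Ratios between parts were computed within each library. Positions, overlaps, pseudogenes and transcript lengths came from GENCODE v29, and promoters from RefSeq.

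The members, gene lists and tests were chosen with earlier results of these data known. Genes named with values were PTBP1, the member with the largest and smallest change in each role, members called against the median direction, members below 1 FPKM, NFE2L1, the excluded subunits and the pathway genes with the largest called changes. Other members given with values were chosen after their values were seen. Alternatives were other pseudocounts, filters, scalings, thresholds, a fit of only 2 groups, no trend, a replicate block, leaving out assembled loci and mitochondrial genes, and leaving out each library. An alternative added after seeing the data regressed each library on GC content and length with splines of 5 degrees of freedom.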

Additional observations from a re-analysis of the deposited data

Results flagged for a closer look

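A locus assembled from the reads, outside the list of proteasome genes, overlaps the end of an exon of PSMD5. MSTRG.28060 lies on chromosome 9 from 120842980 to 120854721 on the + strand (GRCh38), and 1 of its 19 exons overlaps an exon of PSMD5. PSMD5 lies on the - strand from 120815496 to 120842984. The locus and PSMD5 thus share only the positions from 120842980 to 120842984, at the start of PSMD5. It was picked because its level in sh-Ptbp1-7d, 5.66 ± 0.359 FPKM (SD, n = 3), stood above that of the control libraries. The libraries were at 2.59, 2.44 and 2.54 FPKM in sh-Luci-3d, 2.36, 2.94 and 2.72 in sh-Ptbp1-3d and 6.06, 5.55 and 5.37 in sh-Ptbp1-7d. Its difference from sh-Ptbp1-3d was 1.06 on the log2 scale, given with no test since the same libraries chose it, while PSMD5 had an estimate of -0.17 in the same comparison. Whether reads of the locus and of PSMD5 were told apart was not tested.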

How the results depend on the processing

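Of the changes of named genes, 1292 values under the alternatives kept their direction and side of the threshold, 95 lost the call, 25 gained it and 18 changed sign. From sh-Ptbp1-3d to sh-Ptbp1-7d, the count of lower members was between 12 and 22 when each library was left out in turn, and 27 after the correction for GC content and length. Of all entries, between 11.7% and 18.9% were lower without single libraries and 26.2% after the correction. The count of higher members was 0 without a filter, with median-ratio scaling, without a trend and after that correction, and between 0 and 2 without single libraries. The median of the members was -0.19 with TPM, -0.38 with median-ratio scaling and -0.45 after the correction, and between -0.33 and -0.25 without single libraries. TPM moved the median of all entries from 0.092 to 0.20, and the members lay below the median of all entries by -0.39 both with TPM and as deposited, and by -0.24 with quantile normalization. Against sh-Luci-3d, 25 members were lower after the correction, where 26.4% of all entries were. Without single libraries between 10 and 22 were lower, where between 12.2% and 17.1% of all entries were. The number of higher members was 2 at an FDR of 0.05 and with TPM, 0 without a filter and with only 2 groups in the fit, and between 0 and 3 without single libraries. That median was -0.43 with median-ratio scaling, -0.42 after the correction and between -0.36 and -0.28 without single libraries. At 3 days, leaving out single libraries gave between 0 and 1 lower and between 0 and 1 higher members, and medians between -0.029 and 0.053. Of the 32 pathway genes, 9 were lower against sh-Ptbp1-3d at an FDR of 0.05, 8 with median-ratio scaling, 7 with quantile normalization and 11 after the correction. Of all entries, 21.2%, 18.6%, 18.7% and 26.2% were lower in the same order. Without single libraries between 4 and 8 pathway genes were lower, where between 11.7% and 18.9% of all entries were. Between 6 and 8 were then higher, where between 2307 and 3796 of all entries were. The causes of these shifts were not tested.

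The sign changes were in 4 genes near 0. Against sh-Ptbp1-3d, the value of PSMA6 was -0.025 after the correction, that of PSMC6 was -0.072 with median-ratio scaling, -0.15 after the correction and between -0.024 and 0.063 without single libraries, one of which gave -0.020, that of PSMD11 was -0.0089 and -0.086 with the same 2 settings, and that of PSMG4 was -0.0021, -0.0063 and -0.11 with median-ratio scaling, quantile normalization and the correction, and between -0.051 and 0.21 without single libraries. Against sh-Luci-3d, PSMA6 was 0.030 with TPM and between -0.18 and 0.086 without single libraries, 0.025 among them, and PSMC6 was 0.079 with TPM and between -0.058 and 0.050 without single libraries, 0.040 and 0.0049 among them.

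The replicate numbers of the labels were not taken to pair the samples. Deviations from the group means correlated between -0.032 and 0.051 for the same number, and between -0.073 and 0.061 for different numbers. With the replicate block, 14 members were lower and 1 higher against sh-Ptbp1-3d, 15 and 1 against sh-Luci-3d, and 0 and 0 at 3 days. Of all entries, 14.8% were lower against sh-Ptbp1-3d and 14.7% against sh-Luci-3d in that fit. The values for GC content and length cover 85.7% of the entries tested and all 38 members tested. The depth is unknown, so counting error cannot be separated from the spread between libraries.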
